A study of Mus musculus with 6 samples.

Results

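The subject is 10 genes of the reactive astrocyte response, measured in neurospheres, which are balls of neural stem cells and their progeny grown in suspension. The genes were Lcn2, Ptx3, Serpina3n, Gfap, Cd44, Osmr, Hspb1, Steap4, S1pr3 and Cd14, which is 10 of the 19057 genes with a symbol of their own on the array. They were found by gene symbol, which gave 25 of the 45281 probes. The genes were selected on measured values of these same arrays, and which values decided is not recorded. The passage difference was taken to be the one they were chosen by, so it is given as a description with no test.

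The arrays were 6 of 1 Illumina MouseWG-6 beadchip. All spheres came from the subventricular zone, the stem cell niche beside the lateral ventricle, of mice aged 18 months, were grown in medium with EGF and FGF, and had no treatment; the titles give 14 days in vitro. The genotype was wt or Wip1-Tg, a transgene for the phosphatase Wip1, with promoter, founder line and strain not stated in the labels. Primary spheres gave 1 wt and 2 Wip1-Tg arrays, and secondary spheres gave 2 wt arrays and 1 Wip1-Tg array. The labels do not say whether arrays of one group hold RNA of different mice or cultures. The p-values therefore measure the spread between samples, and that spread may be technical.

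Astrocytes respond to injury, infection and inflammation with a change of state called reactive gliosis, in which they enlarge their Gfap filaments and secrete acute-phase proteins. Cytokines of the IL-6 family acting through STAT3, and microbial products, IL-1 and TNF acting through NF-κB, are the best known inducers. In rodents some of these genes are induced by many kinds of injury (pan-reactive), while others were first described after systemic endotoxin (neuroinflammation-type) or after stroke (ischaemia-type). The stem cells of the adult subventricular zone are themselves astrocyte-like cells that carry Gfap, so Gfap does not separate a stem cell from an astrocyte in these cultures.

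The arrays were alike in brightness, with median raw intensities of 151 to 168 and 38.92 to 41.3% of probes above background. Above background means a detection p under 0.05 against the negative control beads. The positions on the beadchip ran from primary to secondary spheres, so chip position and passage cannot be told apart. The labels call the mice gender matched, but all 4 probes of Xist, the RNA that silences one X chromosome, exceeded background on Wip1-Tg primary 2 and the 3 secondary arrays and on neither wt primary 1 nor Wip1-Tg primary 1. Among Y-linked genes, 1 of 2 probes of Kdm5d exceeded background on those last 2 arrays and on no other, 1 of 2 probes of Eif2s3y on wt primary 1 only, and 1 of 4 probes of Uty on the 3 primary arrays and wt secondary 1. Passage differences of the genes and counts of the lists are therefore also given for the 4 arrays with Xist signal. Ppm1d, the gene of Wip1, differed by 0.26 between Wip1-Tg and wt spheres on the log2 scale (SE 0.125, limma adjusted p = 0.540). This did not pass the test, and whether the Ppm1d probe lies within the transgene's sequence was not checked.

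Of the 10 genes, 8 had at least 1 probe above background on 3 or more of the 6 arrays, 12 probes in all. Of these 8 genes, 6 were above background on every array, and Lcn2 and Ptx3 were above background on the primary arrays only. Steap4 and S1pr3 did not pass. Raw intensities below are linear and include the background, whose level can be read from the dimmest intensity that was called above background, 160 to 178 per array. Normalised values are log2 after background correction, and differences are on that scale.

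**Figure D1:**
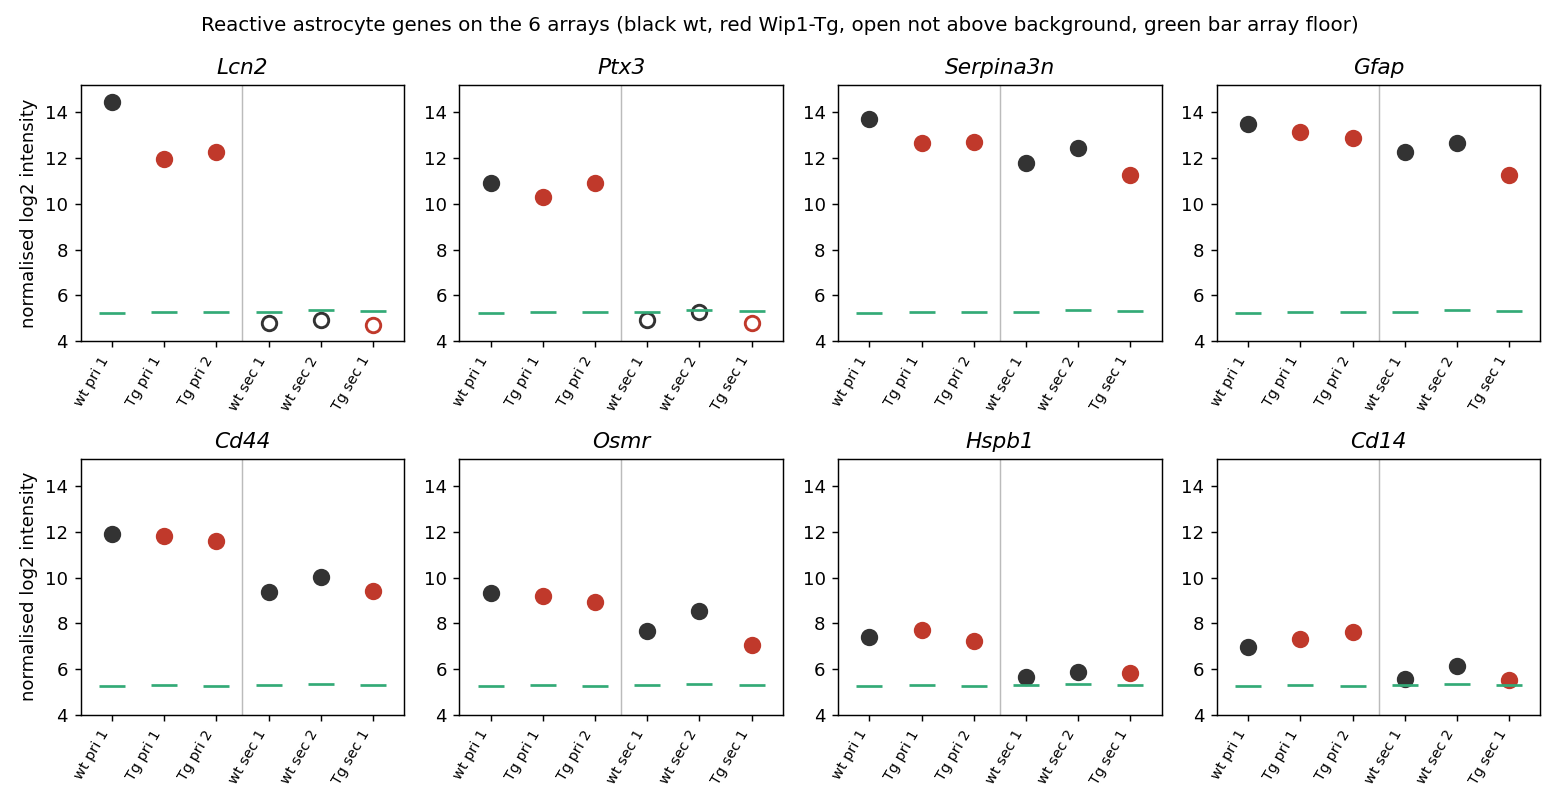
Normalised log2 intensity (vertical axis) of the reported probe of the 8 measured genes on each of the 6 arrays (horizontal axis; pri is primary, sec is secondary, Tg is Wip1-Tg). Each point is 1 array, black for wt and red for Wip1-Tg, open where the probe was not above background, and the green bars are the lowest value above background on that array. Every primary point lies above every secondary point of the same gene, and Lcn2 and Ptx3 sit at background on all 3 secondary arrays.

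The secreted proteins showed the widest range. Lcn2, lipocalin 2, an acute-phase protein that binds bacterial siderophores, had raw intensities of 26956 on wt primary 1, 3966 on Wip1-Tg primary 1 and 4919 on Wip1-Tg primary 2. On the secondary arrays its intensities were 152 and 161 for wt and 144 for Wip1-Tg, with detection p of 0.462, 0.274 and 0.602. Lcn2 thus went from a strong signal in all primary spheres to no signal above background in any secondary sphere. Set against the lowest level that counted as above background, it was at least 192-fold lower in secondary spheres, or at least 112-fold lower without wt primary 1. Both bounds, and those of Ptx3, are for normalised intensity, from means of log2 values over 3 arrays per passage. The fitted log2 difference of Lcn2, -8.52 (SE 0.441), uses signals below background and is no bound, and neither is that of Ptx3, -5.82 (SE 0.204).

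Ptx3, pentraxin 3, a soluble pattern recognition protein, had raw intensities of 2549 on wt primary 1, 1336 on Wip1-Tg primary 1 and 2003 on Wip1-Tg primary 2. Its secondary intensities were 158 and 173 for wt and 149 for Wip1-Tg, with detection p of 0.281, 0.0598 and 0.462. The difference was at least 41.9-fold, or at least 39-fold without wt primary 1, and the second probe of Ptx3, at 1674 to 2868 on primary and 136 to 145 on secondary arrays, gave the same picture. After normalisation Ptx3 was at log2 10.91 on wt primary 1, 10.30 on Wip1-Tg primary 1 and 10.92 on Wip1-Tg primary 2, so 1 of the 2 Wip1-Tg primary arrays lay below the wt array and the other beside it.

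Serpina3n, a serine protease inhibitor of the acute phase, stayed bright in secondary spheres. Its raw intensities were 16866, 6353 and 6598 on wt primary 1, Wip1-Tg primary 1 and Wip1-Tg primary 2, and 3818, 5007 and 2418 on wt secondary 1, wt secondary 2 and Wip1-Tg secondary 1. The arrays did not overlap between passages, but the log2 gap between the lowest primary and the highest secondary array was only 0.22. The secondary minus primary difference was -1.50 (SE 0.187), and within each passage the wt arrays were the brighter ones. Serpina3n belongs to a cluster of similar genes, and whether its probe also binds their transcripts was not tested.

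Of the structural and chaperone genes, Gfap, the intermediate filament of astrocytes, had raw intensities of 14500, 8839 and 7545 on the 3 primary arrays in the same order. On the secondary arrays they were 5152 and 5830 for wt and 2437 for Wip1-Tg. Wip1-Tg secondary 1 was the dimmest array of the 6, and the passage difference of Gfap was -1.38 (SE 0.212), with a log2 gap of 0.21 between the passages. It was -1.02 within wt and -1.74 within Wip1-Tg, and the second Gfap probe gave -1.37. Hspb1, a small heat-shock protein that protects filaments under stress, was dim, with intensities of 352, 338 and 272 on primary and 185, 189 and 186 on secondary arrays. Its secondary signals were barely above background (detection p 0.00641 to 0.0128), and its passage difference of -1.64 (SE 0.166) was nearly the same in wt and in Wip1-Tg spheres, -1.64 in both.

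The receptors were measured by Cd44, Osmr, Cd14 and S1pr3. Cd44, the receptor for the matrix polymer hyaluronan, had raw intensities of 4867, 3529 and 3078 on primary and 822, 1036 and 748 on secondary arrays. The passages lay 1.56 apart at their closest on the log2 scale, the widest gap among the 6 genes measured on every array, and the difference was -2.24 (SE 0.196). The other 2 Cd44 probes that passed the filter gave -1.88 and -1.29. The other 6 Cd44 probes did not pass, so the value speaks only for the transcripts these 3 probes bind.

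Osmr, the receptor subunit for oncostatin M, a cytokine of the IL-6 family, had intensities of 949, 698 and 607 on primary and 345, 449 and 253 on secondary arrays. Its secondary arrays spread widely (log2 SD 0.737, n = 3), with wt secondary 2 at 8.53 near the lowest primary value of 8.94 and Wip1-Tg secondary 1 at 7.06. The passage difference was -1.61 (SE 0.282), -1.23 within wt and -1.999 within Wip1-Tg. Cd14, the co-receptor that hands bacterial lipopolysaccharide to Tlr4, was dim, at 299, 291 and 318 on primary and 183, 200 and 177 on secondary arrays. Its difference was -1.53 (SE 0.247), and its highest array was Wip1-Tg primary 2 (log2 7.60 against 6.99 for wt primary 1).

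Hspb1 and Cd14 lie so near background that their size depends on how background is removed. Without background correction their passage differences were -0.69 and -0.61. S1pr3, a G protein-coupled receptor for sphingosine 1-phosphate, had 2 probes, of which 1 was dimly above background on wt primary 1 and Wip1-Tg primary 2 (raw 191 and 172, detection p 0.0107 and 0.0139). The other was above background on no array. Steap4, a membrane metalloreductase for iron and copper, had raw intensities of 146 to 168 over both probes and all arrays and was above background on none, so no level or difference is given for it.

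In all 8 measured genes every primary array lay above every secondary array, a pattern that 21.8% of the 12755 features tested showed. In the limma fit 28.1% of all features were called for passage (adjusted p under 0.05) and 13.8% were called lower in secondary spheres. The 8 genes are given no such call. Nothing is read from the order of their arrays, since passage values were known when the genes were chosen. The filter also admits a gene detected in primary spheres alone. The median passage difference of the 8 genes was -1.63 against 0.042 over all features. Within wt and within Wip1-Tg each of the 8 genes was lower in secondary spheres, by more than 2-fold in both. Lcn2 and Ptx3, known only by their bounds, have no order between them. Among the 6 genes measured on every array the differences ran, from the largest, Cd44, Hspb1, Osmr, Cd14, Serpina3n and Gfap. The last 5 lay between -1.64 and -1.38 with standard errors of 0.166 to 0.282, so neighbours in that order did not differ beyond their error. On the 4 arrays with Xist signal, where Wip1-Tg primary 2 alone stands for primary spheres, the differences ranged from -7.59 for Lcn2 to -1.40 for Hspb1 and Gfap was at -1.62. In bulk spheres, fewer cells of a type and less RNA per cell cannot be told apart.

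**Figure D2:**
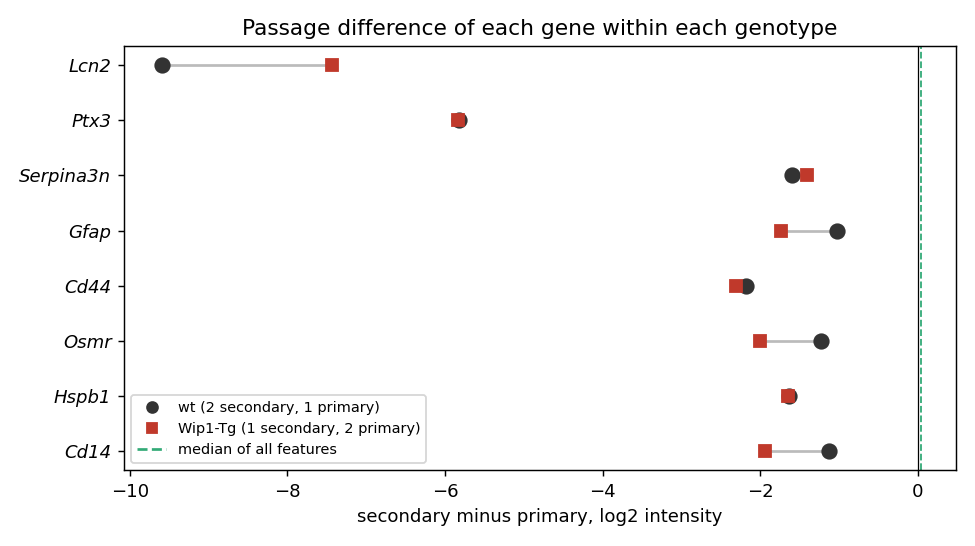
Secondary minus primary log2 intensity (horizontal axis) of the 8 measured genes (rows), within wt (black circles, mean of 2 secondary arrays minus 1 primary array) and within Wip1-Tg (red squares, 1 secondary array minus the mean of 2 primary arrays). All 16 points lie below 0 and below the median of all features at 0.042 (dashed line). Cd44 and Hspb1 gave nearly the same value in both genotypes. The points of Lcn2 (-9.59 in wt, -7.44 in Wip1-Tg) and Ptx3 use secondary signals below background and are no measured sizes.

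Promoter sequence was set beside these values because the genes were lower together. RefSeq (GRCm38.p6) gave a start site for 9 of the 10 genes, and the 250 bases before it were searched on both strands for 5 motifs. These were the STAT motif (TTCNNNGAA), a κB motif (GGGA, any 4 bases, CC), the C/EBP motif (TTGCNNAA), the AP-1 motif (TGANTCA) and a TATA box (TATAAA), and no match overlapped another. The sequences of the 2 genes with the largest differences, of Serpina3n, which kept a strong signal, and of Steap4, which had the most matches and no signal, are printed 5′ to 3′, with matches in capitals.
Lcn2, chr2:32387740-32387989, minus strand: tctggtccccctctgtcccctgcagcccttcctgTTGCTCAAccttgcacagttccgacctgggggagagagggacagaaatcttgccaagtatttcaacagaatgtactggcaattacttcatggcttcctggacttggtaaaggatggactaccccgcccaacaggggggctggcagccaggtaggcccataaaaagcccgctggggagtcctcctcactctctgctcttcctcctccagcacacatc
Ptx3, chr3:66219637-66219886, plus strand: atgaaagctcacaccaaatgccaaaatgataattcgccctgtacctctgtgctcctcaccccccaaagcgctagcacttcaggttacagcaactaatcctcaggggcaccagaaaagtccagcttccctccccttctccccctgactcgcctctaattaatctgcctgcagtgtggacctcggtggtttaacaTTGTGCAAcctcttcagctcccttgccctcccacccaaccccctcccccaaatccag
Serpina3n, chr12:104406458-104406707, plus strand: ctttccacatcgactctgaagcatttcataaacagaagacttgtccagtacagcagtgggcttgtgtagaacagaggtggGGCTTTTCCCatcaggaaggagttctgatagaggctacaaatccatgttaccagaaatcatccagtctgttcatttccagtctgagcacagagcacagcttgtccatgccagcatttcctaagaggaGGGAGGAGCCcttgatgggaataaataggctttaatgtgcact
Steap4, chr5:7960222-7960471, plus strand: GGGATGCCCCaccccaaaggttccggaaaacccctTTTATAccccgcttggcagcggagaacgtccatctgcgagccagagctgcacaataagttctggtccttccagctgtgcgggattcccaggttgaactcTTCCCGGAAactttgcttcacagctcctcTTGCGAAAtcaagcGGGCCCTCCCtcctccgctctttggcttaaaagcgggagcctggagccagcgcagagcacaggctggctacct

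The C/EBP motif was found before Lcn2, Ptx3 and Steap4, which is 3 of 9 genes against 9.56% of 32851 promoters of the same length. In Lcn2 the match was TTGCTCAA, 216 to 209 bases before the start, and in Ptx3 it was TTGTGCAA, 57 to 50 bases before it. The κB motif was found before Serpina3n, Osmr and Steap4, again 3 of 9 against 17.6%. The STAT motif was found before Steap4 alone (7.02% of all promoters), as were the letters of the TATA box (12.4%), and AP-1 before none (6.75%). Those TATA letters lay on the opposite strand, printed as TTTATA, 215 to 210 bases before the start. Steap4, with 4 of the 5 motifs, was the gene with no signal above background, and Gfap, Cd44, Hspb1 and S1pr3 had no match in the window. A match of letters is a description and not a binding site.

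The genotype comparison asked whether the Wip1 transgene altered these genes at a given passage. The fit took genotype and passage as additive terms over all 6 arrays. It called 0 of the 8 measured genes, and 0 of 12755 features (0%). At an unadjusted p under 0.05 stood 3 of the 8 genes, Serpina3n, Gfap and Lcn2, beside 10.1% of all features. Of the 8 genes, 6 were lower in Wip1-Tg than in wt spheres in both passages, beside 25.2% of all features, but for Lcn2 and Ptx3 the secondary signals were below background. That leaves 4 genes with a measured order of group means in both passages, Serpina3n, Gfap, Cd44 and Osmr. For Cd44 the order in secondary spheres rested on wt secondary 2, since Wip1-Tg secondary 1 (log2 9.3943) lay beside wt secondary 1 (9.3895). On the other 2 Cd44 probes that passed the filter, Wip1-Tg secondary 1 was above both wt secondary arrays. The genes are not independent of each other, and some of their genotype values were known when they were chosen.

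Serpina3n had the smallest p of the 8. Its log2 value was 13.72 in wt primary and 12.64 and 12.69 in Wip1-Tg primary spheres, then 11.81 and 12.43 in wt secondary and 11.26 in Wip1-Tg secondary spheres. In both passages each Wip1-Tg array lay below each wt array. The Wip1-Tg minus wt difference was -0.95 (SE 0.187, 95% interval -1.40 to -0.50, n = 3 arrays per genotype, limma adjusted p = 0.434), with -1.05 within primary and -0.86 within secondary spheres. Gfap differed by -0.84 (SE 0.212, 95% interval -1.35 to -0.33, limma adjusted p = 0.434), likewise with each Wip1-Tg array below each wt array of its passage. Its value was -0.48 within primary and -1.20 within secondary spheres, so it moved with which passage was used, and its second probe gave -0.90. Osmr had the same order of arrays, at -0.65 (SE 0.282, limma adjusted p = 0.507), with -0.27 within primary and -1.04 within secondary spheres.

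Lcn2 differed in primary spheres and could not be measured in secondary ones. Its raw intensity on wt primary 1 was 6.80 and 5.48 times that of the 2 Wip1-Tg primary arrays, and its normalised level was 5.02-fold higher, a value that rests on 1 wt array. The additive fit gave -1.25 (SE 0.441, limma adjusted p = 0.482), with -2.33 within primary spheres. The value within secondary spheres, -0.17, compares signals that were not above background. The test of whether the genotype difference depended on passage gave 2.15 for Lcn2 (SE 0.274, limma adjusted p = 0.489). This Lcn2 interaction was called in 4 of 13 alternatives, among them the deposited normalised values (adjusted p = 0.0334) and trend and robust variance (adjusted p = 0.0324), over a range of 0.0121 to 0.970. The term sets the gap among primary spheres, with its 1 wt array, against a gap between secondary signals at background. No other measured gene was called for this interaction under any of those settings, and over all features 0% were called, with 1196 at an unadjusted p under 0.05.

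The other 4 genes differed little by genotype. Ptx3 was at -0.31 (SE 0.204) and Cd44 at -0.25 (SE 0.196), with limma adjusted p of 0.626 and 0.679. The Ptx3 value includes secondary signals below background, and its second probe gave -0.04. The other 2 Cd44 probes that passed the filter gave -0.10 and 0.01. Hspb1 was at 0.059 (95% interval -0.34 to 0.46) and Cd14 at 0.058 (95% interval -0.53 to 0.65), and both signs turned under median scaling, to -0.13 and -0.084. Under median scaling the median of all features was itself -0.19 for genotype. Cd14 was higher in Wip1-Tg by 0.47 within primary and lower by 0.35 within secondary spheres (-0.35).

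**Figure D3:**
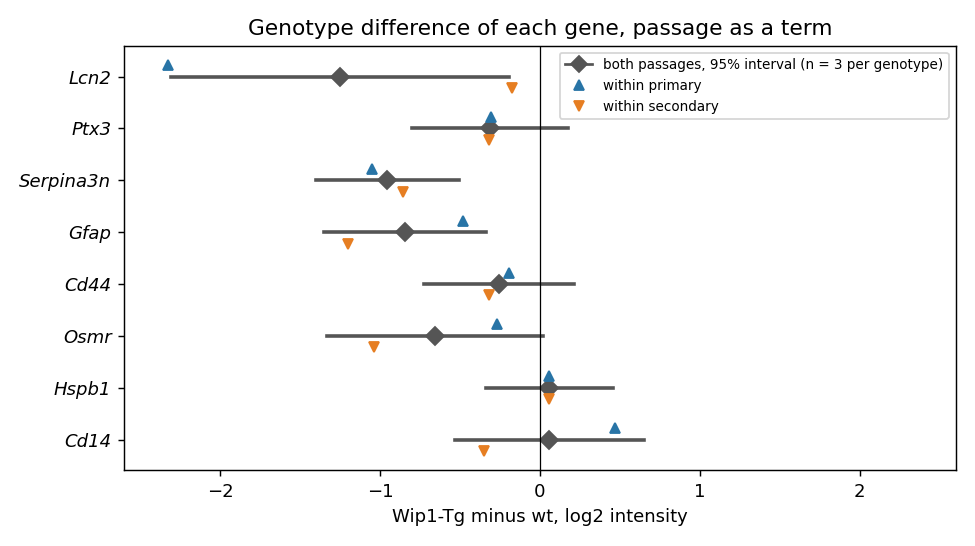
Wip1-Tg minus wt log2 intensity (horizontal axis) of the 8 measured genes (rows). Diamonds with bars are the difference from the fit with passage as a term and its 95% interval (n = 3 arrays per genotype), and triangles are the values within primary (up) and within secondary spheres (down). Serpina3n, Gfap and Lcn2 have intervals below 0 before adjustment over all features, and the 2 triangles of Lcn2 stand farthest apart.

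Other genes of the reactive response, taken from lists not picked for how they moved though fixed with earlier results known, were tested for passage. Beside these counts stand the 13.8% of all features that were called lower in secondary spheres and the 28.1% called either way. A gene above background on no secondary array passed the filter through the primary arrays alone and could only be called lower, so such genes are counted apart and given no p. A signal in both passages means above background on at least 1 array of each. Cxcl10, Clcf1 and Tlr2, counted as fallen, had such a signal on 1 secondary array only. The 3 primary arrays alone would have admitted them, and their differences use secondary signals below background. Of 8 other pan-reactive genes measured, 7 fell in secondary spheres and 0 rose (median -2.10), with 4 falling on the arrays with Xist signal. The exception was the progenitor filament gene Nes, at -0.20. Timp1, an inhibitor of metalloproteases, fell by 5.30 (SE 0.339, limma adjusted p = 0.000356), and the galectin gene Lgals3 fell by 3.60 (SE 0.222, limma adjusted p = 0.000322). The matrix glycoprotein gene Tnc fell by 2.74 (SE 0.159, limma adjusted p = 0.000291), and its 6 probes ranged from -2.88 to -0.83. Cp, the ferroxidase ceruloplasmin, had the list's smallest p for genotype, at -0.81 (SE 0.178, limma adjusted p = 0.434).

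The neuroinflammation-type and ischaemia-type genes did not go opposite ways. Of 7 neuroinflammation-type genes measured, 5 fell, 0 rose, and H2-D1 and Fkbp5 did not pass (median -1.14). On the arrays with Xist signal 3 fell, as they did without Wip1-Tg secondary 1. Gbp2, an interferon-induced GTPase, fell by 3.80 (SE 0.423, limma adjusted p = 0.00185), Serping1, the C1 inhibitor of complement, by 2.40 (SE 0.179, limma adjusted p = 0.00061) and the immunoproteasome subunit gene Psmb8 by 2.17 (SE 0.238, limma adjusted p = 0.00177). The second probe of Psmb8 gave -1.07. Serping1 and Amigo2 were the 2 with the smallest p for genotype, at -0.97 and -0.29, and neither passed. Of 7 ischaemia-type genes measured, all 6 with a signal in both passages fell (median of the 7 -2.28, or -1.97 with Tgm1 at its bound). They included B3gnt5, which fell by 1.97, S100a10, which fell by 2.28, and the cytokine gene Clcf1, which fell by 1.65 (limma adjusted p = 0.000322, 0.0014 and 0.00234). The 3 probes of Clcf1 ranged from -1.65 to -0.92, and its reported probe was above background on 1 secondary array only. The other gene, the transglutaminase gene Tgm1, stayed below background in all secondary spheres and was at least 3.16-fold lower there. On the arrays with Xist signal 5 of the 7 were called lower. These lists were not compared with each other by a test.

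Signalling genes were mixed. Of 10 measured genes of the IL-6 family and STAT3 pathway, 8 had a signal in both passages, of which 4 fell and 1 rose (median of the 10 -0.44). With Il6st and Lif 6 were called lower, and 3 on the arrays with Xist signal, without wt primary 1 or without Wip1-Tg secondary 1. Socs3, the feedback inhibitor that STAT3 induces, fell by 3.62 (SE 0.346, limma adjusted p = 0.00121). The receptor subunit Il6st, which Osmr pairs with, was at least 3.15-fold lower and the cytokine gene Lif at least 1.84-fold lower, both being below background on every secondary array. The kinase gene Jak1 was the one that rose, by 1.01 (SE 0.24, limma adjusted p = 0.0246), a call lost under median scaling and without wt primary 1, wt secondary 1 or Wip1-Tg secondary 1, with 0 genes then called as risen. The second probe of Jak1 gave 0.38. The inducing cytokines Il6 and Il11 had probes above background on at most 1 and 2 arrays, and Osm and Cntf on none.

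Of 24 measured genes of Toll-like, IL-1, TNF and NF-κB signalling, 21 had a signal in both passages, of which 9 fell, 1 rose (Tlr3, named after its value was seen) and 11 did not pass. The other 3, Bcl3, Nfkb2 and Tnfaip3, were below background in all secondary spheres (median of the 24 -0.86, or -0.58 with those 3 at their bounds). On the arrays with Xist signal 11 of the 24 were called lower. Bcl3, an IκB-family co-regulator, was at least 4.76-fold lower. Nfkbiz, another of that family, fell by 1.87 (SE 0.116, limma adjusted p = 0.000322). Ly96, which completes the receptor complex of Cd14 and Tlr4, fell by 1.43 (SE 0.122, limma adjusted p = 0.000882), and the IL-1 receptor subunit gene Il1rap fell by 1.26 (SE 0.187, limma adjusted p = 0.00508). Tlr4 itself, at 0.0008, did not pass, and its second probe gave -0.41. Whether the parts of that receptor complex changed alike was not tested. Tnfrsf1a, the TNF receptor, was at -0.41 for passage and -0.39 for genotype and did not pass for either.

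Among 17 measured partners and relatives of the 10 genes, 16 had a signal in both passages, of which 7 fell, 2 rose and 7 did not pass (median of the 17 -0.36, or -0.34 with the other, Steap1, at its bound). These counts rested on single arrays. With Steap1, 8 were called lower, but 2 on the arrays with Xist signal, 4 without wt primary 1 or Wip1-Tg secondary 1, and 5 without Wip1-Tg primary 1 or wt secondary 1, and 1 was called as risen without Wip1-Tg secondary 1. Has2, the synthase of the Cd44 ligand hyaluronan, fell by 2.28 (SE 0.252, limma adjusted p = 0.0018), and S1pr2, a receptor related to S1pr3, fell by 1.69 (SE 0.149, limma adjusted p = 0.000972), with its second probe at -1.15. The small heat-shock genes Hspb6 and Hspb8 fell by 1.68 and 0.83 (limma adjusted p = 0.00551 and 0.0173). Slc22a17, a receptor for lipocalin 2, rose by 1.26 (SE 0.133, limma adjusted p = 0.00161), the other way from Lcn2, and Cryab, another small heat-shock gene that was named after its value was seen, rose by 1.56 (limma adjusted p = 0.00611). For genotype, 0 of the 73 genes of the 6 lists passed in limma. At an unadjusted p under 0.05 stood 6 of them (Cp, Serping1, Clcf1, Socs3, Hspb6 and Hspb8), which is 8.22% beside 10.1% of all features.

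**Figure D4:**
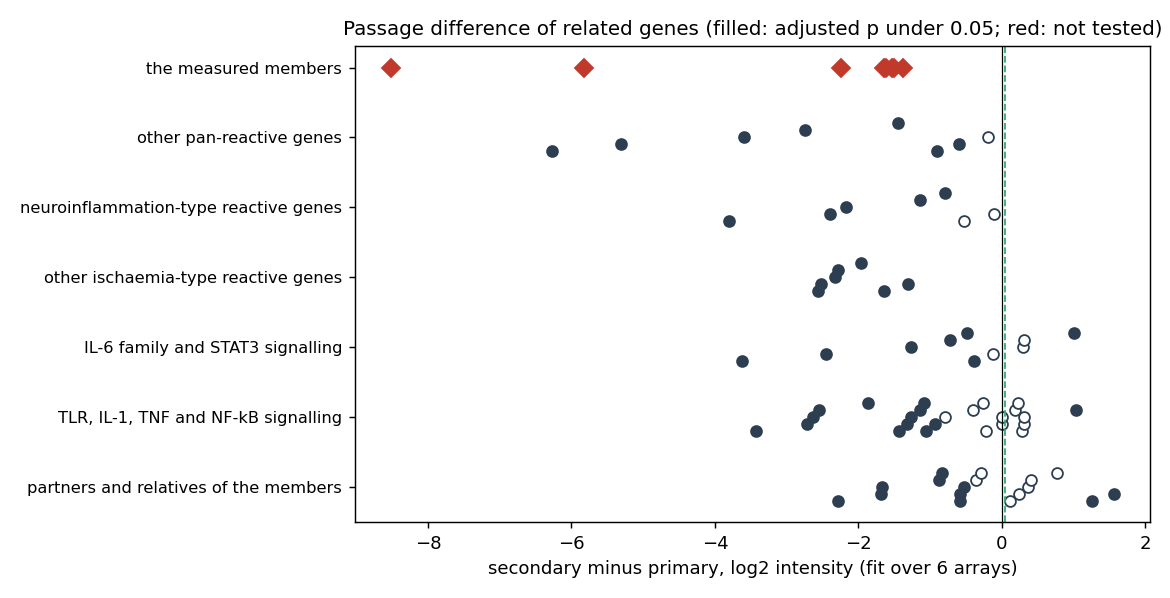
Secondary minus primary log2 intensity (horizontal axis) from the fit over 6 arrays, 1 point per gene, for the 8 measured reactive astrocyte genes (red diamonds, not tested) and the 6 lists of related genes (rows; filled points had an adjusted p under 0.05, open points did not, and 7 filled points are genes below background in all secondary spheres; points are spread vertically to be seen). The 3 rows of other reactive genes hold no point above 0, while the signalling and partner rows hold points on both sides.

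The 5 genes named here had the log2 profile most like the median profile of the 8 measured genes over the 6 arrays, by the root mean square difference of centred values. They were Plec, a cytolinker that binds intermediate filaments (0.126), the oxysterol-binding protein gene Osbpl6 (0.135), the membrane-binding annexin gene Anxa2 (0.138), Nfkbiz (0.138) and Zfp36, which promotes mRNA decay (0.144). Cd44 was the member nearest to that median profile (0.191), and Lcn2 (3.22) and Ptx3 (1.96) were the farthest. The 6 arrays fall into 2 passages, so a like profile mostly means a like passage difference.

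Markers of the cell types that spheres can hold were measured beside these genes. Of all 12755 features, 1826 were called higher in secondary spheres and 1757 lower (13.8%). All 12 astrocyte markers were measured, of which 7 rose and 0 fell in secondary spheres. Their summed background-corrected intensity was 68532 to 77934 on primary and 116188 to 133610 on secondary arrays, the opposite order to the 8 reactive genes. Of the 7 that rose, S100b was below background on every primary array (log2 4.77 to 4.87) and could only be called higher. Markers of fibroblasts and meningeal cells had 2 of 10 measured, of which Fbln1 fell and Col6a1 was below background on every secondary array, so that it could only be called lower (summed level 308 to 424 on primary, 62 to 96 on secondary arrays), and Col1a1, Col1a2, Col3a1, Lum and Dcn did not pass the filter. Endothelial markers had 2 of 10 measured (summed level 195 to 598 against 96 to 123), with Cldn5, Pecam1 and Cdh5 not passing the filter. Flt1 fell (-1.96), while Esam, at 0.33, was not called for passage. All 4 ependymal markers measured, of 8, fell (545 to 988 against 282 to 326). The marker calls were not repeated on the arrays with Xist signal or under other processing. The part of these cells in the values of the 8 genes was not tested.

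For the immune cells that can supply Lcn2, Cd14 and Ptx3 most markers were near background or below it. Of 16 microglia and macrophage markers on the array, 13 did not pass the filter, 12 of them above background on no array, among the 13 Cx3cr1, Ptprc, Itgam, Tyrobp and C1qa. The summed level of the 3 measured, Aif1, Csf1r and P2ry12, was 90 to 130 on primary and 79 to 86 on secondary arrays. Of these 3, 0 passed for passage in limma. P2ry12 was at -0.89 (limma adjusted p = 0.0526), with log2 values of 5.93 to 6.71 on primary and 5.23 to 5.80 on secondary arrays. Aif1 and Csf1r were at 0.30 and 0.035. Of 11 neutrophil markers on the array only Elane was measured (15 to 28 against 24 to 25), and S100a8, S100a9 and Ngp did not pass the filter. Of 10 mural markers 1 was measured, Acta2 (249 to 417 against 74 to 407). Summed levels of stem and progenitor markers were 9047 to 9894 on primary and 8582 to 12509 on secondary arrays, those of neuroblasts and neurons 8570 to 10166 and 6811 to 8609, and those of the oligodendrocyte lineage 4329 to 6816 and 3753 to 6098. Of 7 stem and progenitor markers measured, Hes5 rose (1.62) and 0 fell. Of 7 neuronal markers, Dcx was called higher and Stmn2 lower, each being below background throughout the dimmer passage. Of 8 oligodendrocyte lineage markers, Pdgfra and Sox10 fell (-0.95 and -1.03) and 0 rose.

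**Figure D5:**
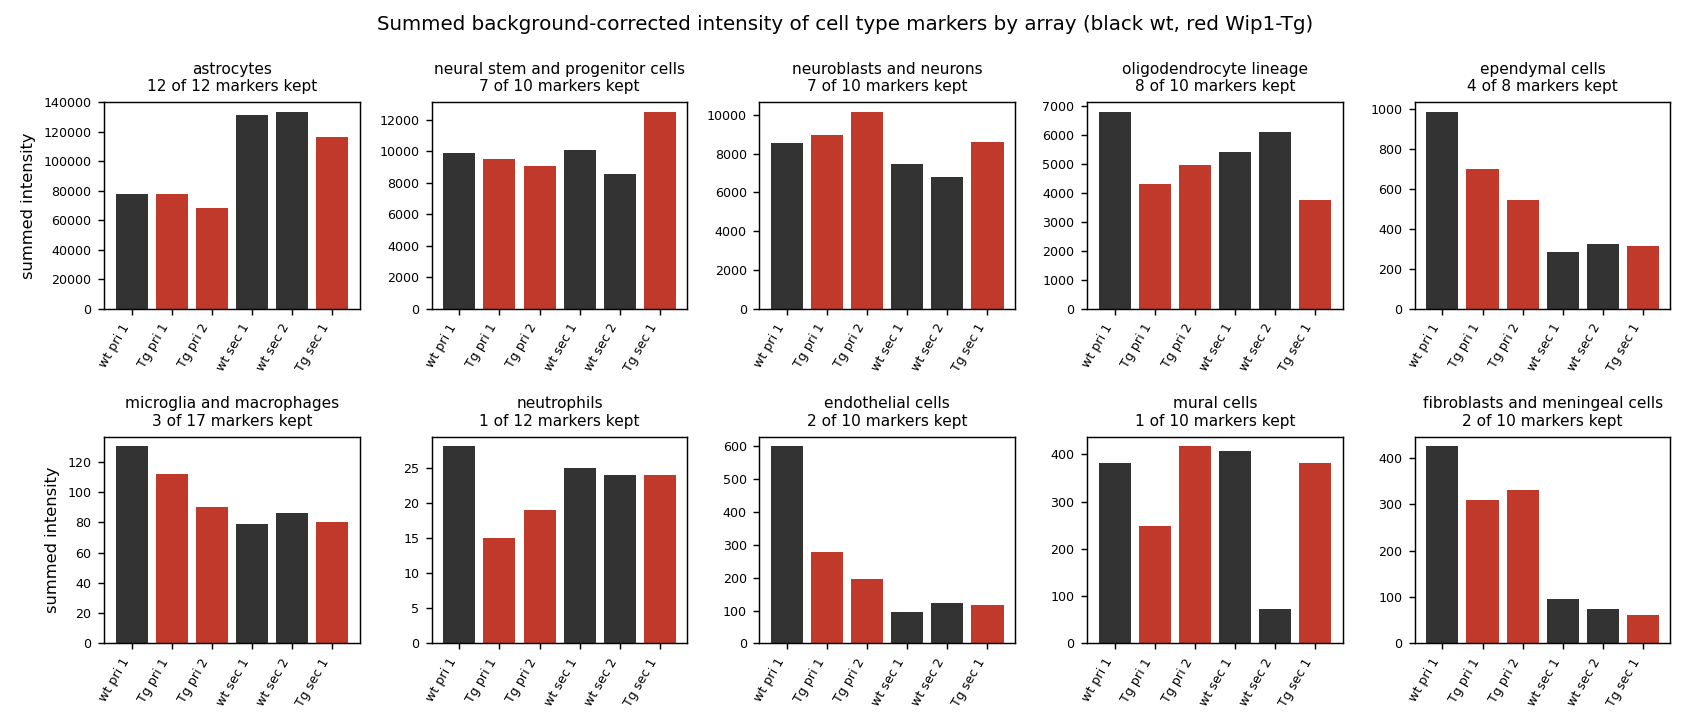
Summed background-corrected linear intensity (vertical axis, own scale per panel) of the measured markers of 10 cell types on each of the 6 arrays (horizontal axis; pri is primary, sec is secondary, Tg is Wip1-Tg; black wt, red Wip1-Tg; 1 bar per array). Astrocyte markers are higher on all 3 secondary arrays. The summed levels of ependymal, endothelial, fibroblast and microglia markers are higher on all 3 primary arrays (microglia 90 to 130 against 79 to 86). In the endothelial sum Flt1 was lower in secondary spheres (-1.96) and Esam was not (0.33). In the microglia sum P2ry12 was lower (-0.89), and Aif1 and Csf1r were not (0.30 and 0.035). The microglia and neutrophil panels reach at most 130 in summed intensity.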

How the data were processed

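Per the file headers, the deposited table without normalization lists for every probe and array its intensity and its detection p-value. Its intensities are linear and still hold the background, as their values show. The deposited value table holds intensities that the values show to be quantile normalized by the authors. Scanner software is not given in the sources used here. With limma 3.58.1 in R 4.3.3, neqc removed background inferred from the detection p-values, added an offset of 16, normalized quantiles and took log2. A probe was kept where 3 or more of the 6 arrays had a detection p under 0.05 (18274 probes). Symbols came from the platform annotation, updated through gene IDs; 34885 probes had 1 symbol, 18 several and 10378 none. The brightest kept probe stood for a gene, giving 12755 features. limma (lmFit, eBayes, Benjamini-Hochberg over all features, threshold 0.05) fitted genotype and passage as additive terms (3 residual degrees of freedom), and with their interaction (2). The fit was also run on simulated data with independent noise. Such data hold no effects shared by an array, and nothing is concluded from that run. "At least" folds compare a group's mean with, per array, the higher of the dim value and the lowest value above background.

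The genes, the 6 lists of related genes, the 10 marker lists (astrocytes, stem and progenitor cells, neurons, oligodendrocyte lineage, ependymal cells, microglia, neutrophils, endothelium, mural cells, fibroblasts) and the tests were chosen with earlier results of these data known. Named from each list were the 3 smallest p for passage and the 2 for genotype, plus the 5 nearest profiles. Counts of 5 or fewer outside this rule are named too, chosen after their values were seen; so were the genes given as not measured and Tlr4. The number of arrays limits the precision. Deviations of same-numbered arrays, in the only 2 groups with 2 arrays, correlated at -0.11.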

Additional observations from a re-analysis of the deposited data

Results flagged for a closer look

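Of the 25 probes of the 10 genes, 3 were outside the fit and yet above background on a few arrays. The S1pr3 probe ILMN_2935985 was above background on 2 arrays, wt primary 1 and Wip1-Tg primary 2, with a lowest detection p of 0.0107. The Cd44 probe ILMN_2754990 was above background on Wip1-Tg primary 2 only (0.0353), and the Cd44 probe ILMN_2730266 on wt primary 1 only (0.0363). No secondary array was among them.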

How the results depend on the processing

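Up to 18 alternatives gave a value, of which 6 left out 1 array. The differences of Lcn2 and Ptx3 had 16, since neither passes a filter on all 6 arrays, the other 6 genes had 17, and the Lcn2 interaction had 13, since it needs an array in every group. Of 134 passage differences of the 8 genes so obtained, all 134 stayed below 0, and of 134 genotype differences 127 kept their sign. The 7 that turned were of genes near 0. Hspb1 went to -0.129 and Cd14 to -0.0838 under median scaling, Cd14 to -0.352 on the 4 arrays with Xist signal, and as arrays were left out Cd14 ranged from -0.352 to 0.468 and Hspb1 from -0.044 to 0.162. Other genotype values also rested on single arrays: Gfap was at -0.48 without Wip1-Tg secondary 1 and -1.20 without wt primary 1, Osmr at -0.27 and -1.04, and Lcn2 at -2.33 and -0.17. None of the 8 was called for genotype under any alternative. Over all features, trend and robust variance called 1 for genotype. Interaction calls numbered 6 with the deposited normalised values, 6 with no background correction, 9 with median scaling, 1 with an offset of 50, 1 with no filter and 9 with trend and robust variance. The 3583 passage calls became 1101 on the 4 arrays with Xist signal and 1363 (without Wip1-Tg secondary 1) to 3034 as arrays were left out, with 1855 without wt primary 1 and 2356 without wt secondary 1. Fewer arrays were fitted there. Median scaling moved the split from 1826 higher and 1757 lower to 626 and 3235, with a median of -0.24 over all features. Counts of list genes called lower ranged from 4 to 7 for pan-reactive, 3 to 6 for neuroinflammation-type, 3 to 6 for IL-6 and STAT3 and 2 to 8 for partner genes, each lowest on the arrays with Xist signal. They were lowest under a filter on all 6 arrays for ischaemia-type (4 of 4 tested, at most 7 of 7) and NF-κB genes (8 of 19 tested, at most 15), where fewer genes were tested. With the titles' replicate number as a replicate block passage calls were 3406, and with the numbers of the wt secondary arrays exchanged, an alternative added after seeing the data, 3150, with 0 for genotype and interaction in both. The Lcn2 and Ptx3 folds are bounds set by background, and Hspb1 and Cd14 lie near it.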
